A study of Homo sapiens with 2 samples.

Results

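The genes described here encode collagens, laminin chains and 10 further proteins of the extracellular matrix: FN1, NID1, NID2, THBS1, THBS2, SPARC, TNC, FBN1, FBN2 and HSPG2. Collagens and laminins were taken by symbol (COL with a type and a chain number, LAM with a chain letter and number). The files list 54 of these genes among 19316 genes in all, namely 34 collagens, 10 laminin chains and the 10 others. A further 12 genes with such symbols are listed in neither library (COL2A1, COL6A5, COL6A6, COL15A1, COL19A1, COL20A1, COL22A1, COL23A1, COL25A1, COL26A1, LAMA1 and LAMC3). Of the 54, 33 counted as measured, with an FPKM (fragments per kilobase of gene length, scaled to depth) of 1 or more in either library, and the other 21 lay below that level in both.

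RNA came from SNU449, an established line of liver cancer cells, which had carried a lentivirus for 7 days with either an shRNA against FZD2, a frizzled receptor for Wnt ligands, or a control shRNA. Poly(A) RNA was sequenced from 1 library per group, so no value has a replicate error and no difference between the conditions was tested. The labels disagree on the tissue, since the protocol for growth has prostate and the cell type has liver. The labels name no clone and no hairpin sequence. Expected counts summed to 8234592 with FZD2 shRNA and 8436870 with control shRNA. FZD2 itself had 15.76 FPKM with its shRNA and 59.45 FPKM with the control shRNA, a log2 ratio of -1.85. Sizes are log2 ratios of FPKM + 1, FZD2 shRNA over control, unless a count ratio is named. A count ratio compares expected counts per library total, and its 95% interval covers counting error only.

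Markers of fibroblasts and stellate cells numbered 10, of which 5 were measured, and they summed to 31.98 FPKM with FZD2 shRNA and 35.0 with control. RGS5 made up most of these sums, at 20.21 against 24.22 FPKM, with ACTA2 at 5.01 against 5.17 (shared reads). LRAT was at 2.96 against 1.32 (shared reads), THY1 at 1.86 against 1.81 and POSTN at 1.38 against 1.66. PDGFRA and PDGFRB were at 0.2 FPKM or below in both. Of 10 hepatocyte markers, 2 were measured, and the listed ones summed to 230.28 against 193.79 FPKM. Nearly all of this was the fibrinogen genes, FGB at 105.3 against 91.67 (shared reads) and FGG at 123.36 against 100.72. ALB was at 0.05 FPKM with FZD2 shRNA and at 0, the value set for unlisted genes, with control shRNA. APOB and TTR were listed in neither library, and of these markers only the fibrinogen genes reached 1 FPKM. Of 7 endothelial markers 2 were measured (summed level 28.85 against 16.87 FPKM), with VWF unlisted. Most of these sums was EGFL7, at 26.26 against 16.26, with PECAM1 at 2.33 against 0.41 (shared reads). CDH5, KDR, TEK and CLDN5 were at 0.23 FPKM or below in both. Of 6 leukocyte markers 4 were measured (94.23 against 27.74), with CD3E among those unlisted. Most of that leukocyte difference was LYZ, at 71.47 against 12.31 FPKM, and CD68 was also higher, at 19.45 against 12.15, both with shared reads. CD14 was at 1.7 against 1.72 and PTPRC, with shared reads, at 1.61 against 1.56. Both libraries are labelled as a single cell line, SNU449, and the marker sums are levels of RNA, not counts of cells. What part other cells have in the matrix values was not tested, and in bulk RNA fewer cells of a type and less RNA per cell cannot be told apart.

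Fibrillar collagens assemble into the banded fibres of connective tissue, with collagen I built from COL1A1 and COL1A2 chains. Basement membranes are thin sheets under epithelia and around vessels, made of a laminin network and a collagen IV network that nidogen and perlecan (HSPG2) link. Each laminin is a trimer of an alpha, a beta and a gamma chain. Fibronectin, thrombospondins, tenascin C and SPARC are glycoproteins that bind these networks and the cell surface, and in liver cancer much of the matrix is laid down by stromal cells as well as by tumour cells.

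The start regions of 7 genes are shown because the results below turn on them. COL4A1 and COL4A2, chains of the same collagen IV trimer, are read in opposite directions from starts 126 bases apart, so their sequence is a single shared stretch. LAMB1 and LAMC1 encode chains of the same laminins, LAMB2 encodes the beta chain that takes the place of LAMB1 in other laminins, and NID1 and THBS1 had the lowest ratios. Sequences are from RefSeq on GRCh38.p14, which is not the build of the files, and each is the 126 bases before the RefSeq start, 5′ to 3′ on the gene's strand. Capitals mark matches on either strand to the GC box GGGCGG, the CCAAT box CCAAT or the TEAD site CATTCC. The COL4A1 and COL4A2 stretch lies at chr13:110307158-110307283 (plus strand, the strand of COL4A2), LAMB1 at chr7:108003162-108003287 (minus), LAMC1 at chr1:183023294-183023419 (plus), LAMB2 at chr3:49133051-49133176 (minus), NID1 at chr1:236065091-236065216 (minus) and THBS1 at chr15:39580953-39581078 (plus).
COL4A1 and COL4A2: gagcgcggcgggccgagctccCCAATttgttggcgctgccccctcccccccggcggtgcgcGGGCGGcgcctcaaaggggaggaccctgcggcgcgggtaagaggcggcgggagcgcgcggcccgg
LAMB1: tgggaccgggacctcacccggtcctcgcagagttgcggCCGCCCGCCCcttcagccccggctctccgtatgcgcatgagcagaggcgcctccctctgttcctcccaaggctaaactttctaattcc
LAMC1: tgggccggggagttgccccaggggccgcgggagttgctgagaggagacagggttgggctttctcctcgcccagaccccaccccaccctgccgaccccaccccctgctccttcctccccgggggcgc
LAMB2: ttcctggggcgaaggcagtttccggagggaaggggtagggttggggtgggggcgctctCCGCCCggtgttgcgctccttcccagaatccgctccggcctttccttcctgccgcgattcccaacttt
NID1: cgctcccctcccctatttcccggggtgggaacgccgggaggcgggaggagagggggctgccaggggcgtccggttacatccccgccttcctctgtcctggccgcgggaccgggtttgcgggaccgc
THBS1: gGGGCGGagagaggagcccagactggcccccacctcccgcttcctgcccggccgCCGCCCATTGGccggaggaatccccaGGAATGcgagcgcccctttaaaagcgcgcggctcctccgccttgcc

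The shared collagen IV stretch holds 1 GC box and 1 CCAAT box. LAMB1 holds 2 GC boxes that overlap each other, LAMB2 holds 1, and THBS1 holds 2 GC boxes, 1 CCAAT box and 1 TEAD site. LAMC1 and NID1 hold no match to the motifs searched. Among all 35116 RefSeq start regions of this length, 34.6% hold a GC box, 21.1% a CCAAT box and 5.89% a TEAD site. Also searched without a match in these 6 sequences were the TATA box TATAAA, the AP-1 site TGANTCA, the TCF/LEF site CTTTGAT and the SRF CArG box, which 5.87%, 3.50%, 1.06% and 0.683% of all start regions hold. A match is a description of the letters and not evidence of binding. Of the 33 measured matrix genes, 26 have a start region in the table.

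As a whole, the 54 matrix genes took fewer reads in the FZD2 shRNA library. They held 0.608% of its expected counts (0.602 to 0.613%, exact binomial interval) against 0.879% in the control (0.873 to 0.885%), a log2 ratio of -0.53. Basement membrane genes went from 0.233% in the control to 0.151%, fibrillar collagens from 0.263% to 0.215%, and the 7 glycoprotein genes from 0.132% to 0.0632%. The glycoproteins thus had the lowest ratio of these 3 classes, -1.06, with basement membrane genes at -0.62 and fibrillar collagens at -0.29. Collagen VI, outside these 3, went from 0.170% in the control to 0.0923%, a ratio of -0.88. The fibrillar value lay mainly in COL1A2, at 8970 expected counts with FZD2 shRNA and 14221 with control shRNA, while COL1A1 was higher, at 5939 against 5094. Multiplexins, here COL18A1 alone, took a larger share with FZD2 shRNA, from 0.0503% in the control to 0.0557%. So did the network collagens VIII and X, from 0.00186% to 0.0029%.

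Few matrix genes passed 2-fold. LAMB2 and LAMB4 were at least 2-fold higher and NID1 and THBS1 at least 2-fold lower, while 29 of the 33 lay between. Over all 14377 measured genes, 15.2% were at least 2-fold higher and 7.41% at least 2-fold lower. The median over the 33 was -0.40, beside -0.004 over all measured genes. Of the 33, 3 had shared reads, LAMB4 and TNC among them, meaning that a fractional expected count in a library showed reads split with other genes, and their values are uncertain. Of all 14377 measured genes, 6223 had shared reads. Among genes without them, 1 of 30 matrix genes was at least 2-fold higher (4.19% of all such genes) and 2 were at least 2-fold lower (10.2%). The medians were -0.45 over these matrix genes and -0.25 over all such genes. Counts this small were not read as a difference from the background in either direction.

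Counting error was small beside most differences. The count interval lay wholly below no difference for 21 of the 33 and wholly above it for 7, and it included no difference for 5. Over all measured genes, 36.8% lay wholly below and 35.5% wholly above. Among all genes without shared reads those shares were 48.1% below and 19.4% above, and of the 30 such matrix genes 20 lay below and 5 above.

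**Figure D1:**
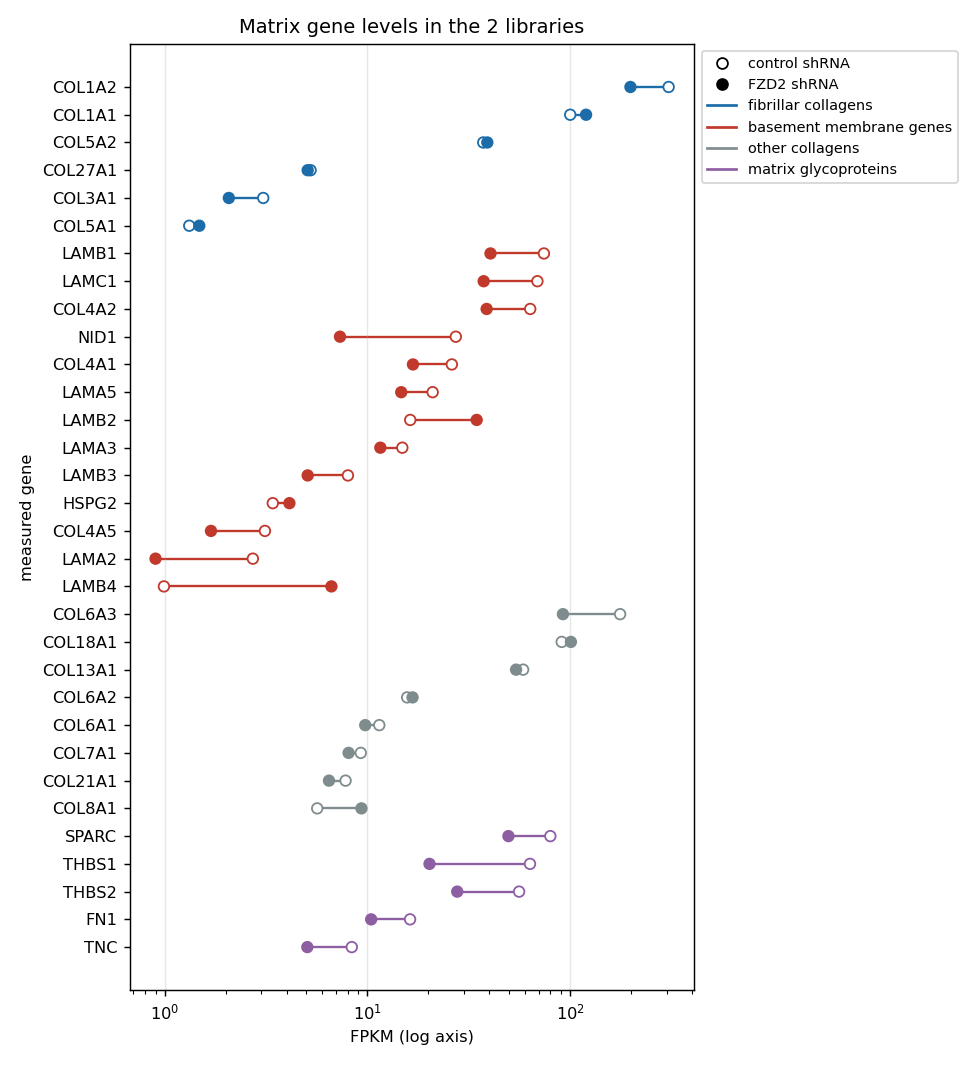
FPKM on a log axis of 32 measured matrix genes in the control shRNA library (open circles) and the FZD2 shRNA library (filled circles), 1 library each, ordered by control level within class. All 5 glycoproteins lie to the left of their control, as do 10 basement membrane genes, while the fibrillar collagens lie on both sides.

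Fibrillar collagens were mixed. COL1A2, the alpha 2 chain of collagen I, had the highest level per length of all matrix genes, at 198.48 FPKM with FZD2 shRNA and 306.36 with control shRNA (log2 ratio -0.62). COL1A1, its alpha 1 partner, was at 119.9 against 100.13 FPKM (0.26). The chains of a single trimer thus lay on opposite sides of no difference, and both count intervals excluded it (-0.67 to -0.59 for COL1A2, 0.20 to 0.31 for COL1A1). With the GC trend taken out, COL1A1 stood at -0.05 and COL1A2 at -0.70.

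COL5A2 and COL5A1, chains of collagen V, which joins collagen I fibrils, were at 39.04 against 37.27 FPKM (0.07) and at 1.48 against 1.32 (0.10). COL27A1, a fibrillar collagen of cartilage, was at 5.07 against 5.24 FPKM (-0.04). The intervals of these 3 genes all included no difference. COL3A1, the collagen III chain, was low, at 2.07 against 3.06 FPKM (-0.40), with a count ratio of -0.57 (-0.95 to -0.18). COL11A1, COL11A2, COL24A1 and COL5A3 were below 1 FPKM in both libraries.

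Collagen IV genes were lower together. COL4A1 was at 16.77 against 26.09 FPKM (log2 ratio -0.61), and COL4A2 at 38.74 against 63.57 (-0.70). These are the genes that share the start region printed above. Their count intervals overlapped, at -0.76 to -0.52 and -0.80 to -0.64. With the GC trend taken out, COL4A1 stood at -0.65 and COL4A2 at -1.04. COL4A5, an alpha chain of other collagen IV networks, was at 1.69 against 3.12 FPKM (-0.62). COL4A3, COL4A4 and COL4A6 were below 1 FPKM in both libraries.

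Laminin chains lay in opposite directions. LAMC1, the gamma 1 chain that most laminins contain, was at 37.45 against 68.97 FPKM (log2 ratio -0.86), and LAMB1, the beta 1 chain, at 40.47 against 74.28 (-0.86). Their count ratios were -0.88 (-0.96 to -0.81) and -0.88 (-0.96 to -0.80), so the intervals nearly coincided. LAMB2, the beta 2 chain, was at 34.6 against 16.26 FPKM (1.04), with a count ratio of 1.09 (0.96 to 1.21). LAMB2 was thus higher where its alternative LAMB1 was lower, and its share of the summed LAMB1 and LAMB2 FPKM was 46.1% with FZD2 shRNA and 18.0% with control shRNA. The sum of both beta chains was 75.07 against 90.54 FPKM. LAMB2 stood below 2-fold with a pseudocount of 5 FPKM (0.90) and with the trend of the ratios with GC content taken out (0.76).

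The alpha chains were lower. LAMA5, an alpha chain of many epithelial and vascular laminins, was at 14.68 against 20.98 FPKM (-0.49). LAMA2, the alpha chain of muscle and nerve laminins, was low, at 0.9 against 2.72 FPKM (-0.97), with 73 against 227 expected counts and a count ratio of -1.60 (-2.00 to -1.22). LAMA2 passed 2-fold in TPM (-1.03). LAMA3, the alpha chain of laminin 332 in epithelial anchorage, was at 11.58 against 14.86 FPKM (-0.33). Its expected counts were 391 against 719, a count ratio of -0.84 (-1.03 to -0.66). The FPKM ratio lay nearer to no difference mainly because this gene's given length was 4050.54 bases with FZD2 shRNA and 5636.76 bases with control shRNA.

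The less common beta chains did not share a direction. LAMB3, the beta 3 chain of epithelial laminin, was at 5.07 against 8.01 FPKM (-0.57). LAMB4, whose reads were shared with other genes, was at 6.64 against 0.99 FPKM (1.94), from 147.21 against 22.98 expected counts. With a pseudocount of 5 FPKM it stood at 0.96. LAMA4 was below 1 FPKM in both libraries.

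The proteins that link the laminin and collagen IV networks differed from each other. NID1, nidogen 1, was at 7.32 against 27.29 FPKM, a log2 ratio of -1.77 and the lowest of all measured matrix genes. Its expected counts were 361 against 1383, a count ratio of -1.90 (-2.07 to -1.73). NID1 was at least 2-fold lower under each of the 7 alternatives that can move a single gene's ratio, where it ranged from -1.88 to -1.39. HSPG2, perlecan, was at 4.12 against 3.41 FPKM (0.22, or -0.21 with the GC trend taken out), and NID2 was below 1 FPKM in both libraries.

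**Figure D2:**
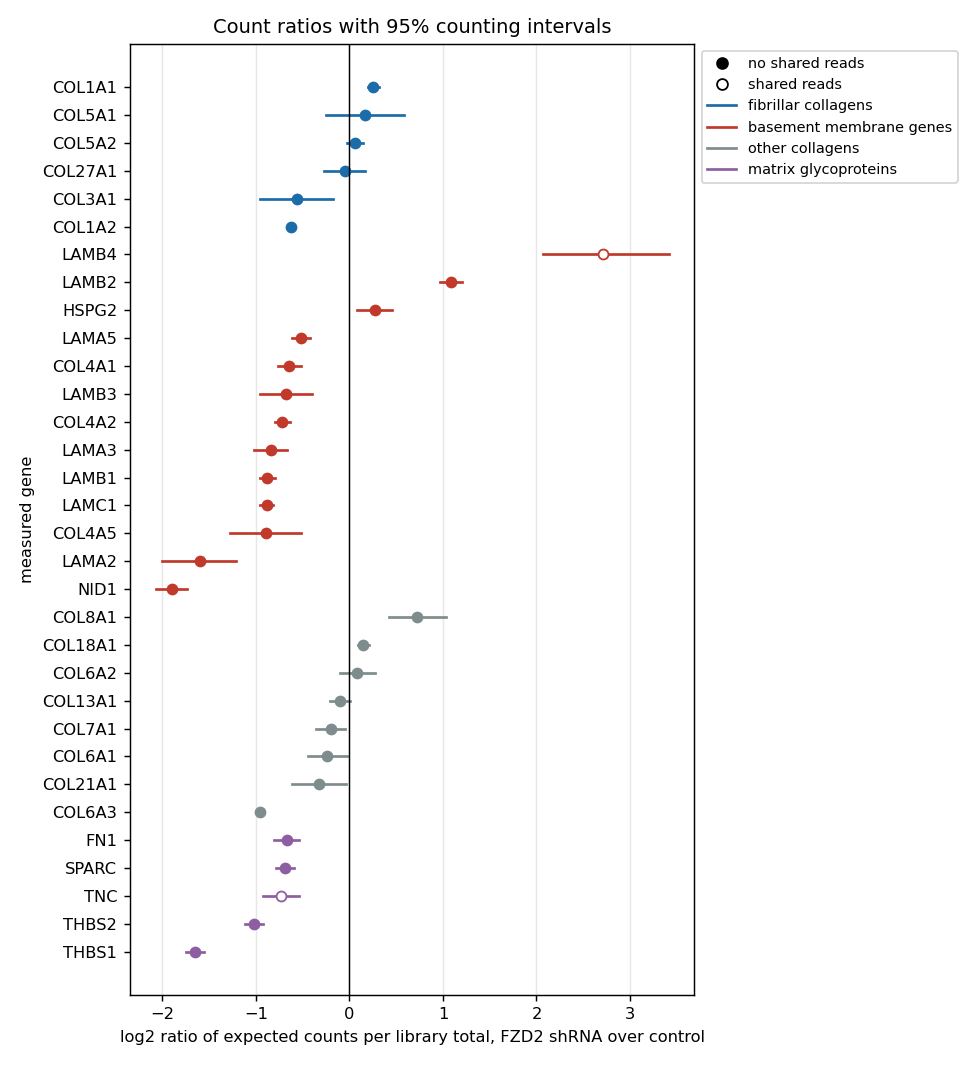
Log2 count ratio, FZD2 shRNA over control, of 32 measured matrix genes by class, with 95% counting intervals (lines) and open circles for genes with shared reads. NID1 and THBS1 lie farthest left, and LAMB2 lies right of all other genes without shared reads.

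Set side by side, fibrillar collagens had a median of 0.01 (6 measured genes, from -0.62 to 0.26) and basement membrane genes a median of -0.59 (14 measured genes, from -1.77 to 1.94), a difference of 0.60 (counting range 0.05 to 0.92). That difference was 0.33 with no filter on low values and 0.38 with a pseudocount of 5 FPKM. The 2 ranges overlapped, and COL1A2 lay at the level of COL4A1. Of the 14 basement membrane genes, 10 had count intervals wholly below no difference and 4 wholly above, and 2 of those 4 had shared reads. Of the 6 fibrillar genes, 2 lay wholly below, 1 wholly above and 3 included no difference. Median GC content of the transcripts was 57.5% in the fibrillar and 51.6% in the basement membrane group. With the GC trend taken out, the medians were -0.27 and -0.68 and the difference 0.41, and 5 of 6 fibrillar genes were then below 0 in place of 3. TPM, which moved the median over all measured genes up by 0.14, gave 0.16 and -0.46.

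All 5 measured matrix glycoproteins were lower, as were the 3 measured collagen IV genes. THBS1, thrombospondin 1, an inhibitor of angiogenesis and activator of latent TGF-beta, was at 20.24 against 63.41 FPKM (log2 ratio -1.60), from 1228 against 3952 expected counts (count ratio -1.65, -1.74 to -1.56). THBS2, its close relative, was at 27.73 against 56.02 FPKM (-0.99), just short of 2-fold, with a count ratio of -1.02. SPARC, a collagen-binding protein, was at 49.63 against 79.9 FPKM (-0.68). All 3 had intervals wholly below no difference.

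FN1, fibronectin, was at 10.43 against 16.23 FPKM (-0.59) and TNC, tenascin C, at 5.05 against 8.37 (-0.63, shared reads). Fibronectin thus stood well below COL1A2 and COL6A3 in level per length in both libraries. FBN1 and FBN2, the fibrillins, were below 1 FPKM in both. THBS1 was at least 2-fold lower under each of the 7 alternatives that can move a single gene's ratio, from -1.64 to -1.37.

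The remaining collagens were led by COL6A3, the large chain of the collagen VI filament. It was at 92.16 against 176.55 FPKM (log2 ratio -0.93), from 6781 against 13446 expected counts, and so lost the most reads of any matrix gene. Its partners, COL6A1 and COL6A2, had ratios nearer to no difference. COL6A1 was at 9.75 against 11.44 FPKM (-0.21) and COL6A2 at 16.69 against 15.7 (0.08), whose interval included no difference. With the GC trend taken out, COL6A1 stood at -0.60, COL6A2 at -0.38 and COL6A3 at -0.98.

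COL18A1, a collagen of basement membrane zones whose end fragment is endostatin, was at 100.92 against 90.93 FPKM (0.15), with a count interval of 0.09 to 0.21, but at -0.37 with the GC trend taken out. COL13A1, a transmembrane collagen of cell adhesions, was at 54.13 against 58.63 FPKM (-0.11, or 0.04 in TPM and -0.47 with the GC trend taken out), and its interval included no difference. COL8A1, a short network collagen of vessel walls, was at 9.34 against 5.65 FPKM (0.64), the highest ratio among measured collagens. COL7A1, of the anchoring fibrils of skin, was at 8.07 against 9.27 FPKM (-0.18), and COL21A1, which binds to fibrils, at 6.46 against 7.8 (-0.24). Of the collagens under 1 FPKM, COL28A1 was picked out after its values were seen. It had 1 expected count against 17, a count ratio of -4.05 (-9.44 to -1.38).

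Ratios between genes of the same assembly do not depend on how the libraries are scaled to depth. The per-length level of COL1A1 over COL1A2 was 0.604 in the FZD2 shRNA library (0.584 to 0.624) and 0.327 in the control (0.317 to 0.338). COL4A1 over COL4A2 was 0.433 against 0.410, and the log2 change of that ratio, 0.08, had an interval that included 0 (-0.07 to 0.22). LAMB1 over LAMC1 was 1.08 in both libraries, with a change of 0.005 (-0.10 to 0.11). The collagen I ratio thus differed beyond counting error, whereas for the collagen IV and laminin beta 1 to gamma 1 pairs no difference was detectable beyond it. With the GC trend taken out, the difference of log2 ratios was 0.40 for COL4A1 minus COL4A2 and -0.03 for LAMB1 minus LAMC1.

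LAMB2 over LAMC1 went from 0.236 in the control to 0.924, a log2 change of 1.97 (1.83 to 2.11). NID1 over LAMC1 went from 0.396 to 0.196 (-1.02, -1.20 to -0.84), so NID1 was lower than the laminin chain it binds. COL6A3 over COL6A1 went from 15.4 to 9.45 (-0.71), and COL6A1 over COL6A2 from 0.729 to 0.584 (-0.32, -0.60 to -0.04). THBS1 over THBS2 went from 1.13 to 0.730 (-0.63). In all, 14 such pairs were compared.

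**Figure D3:**
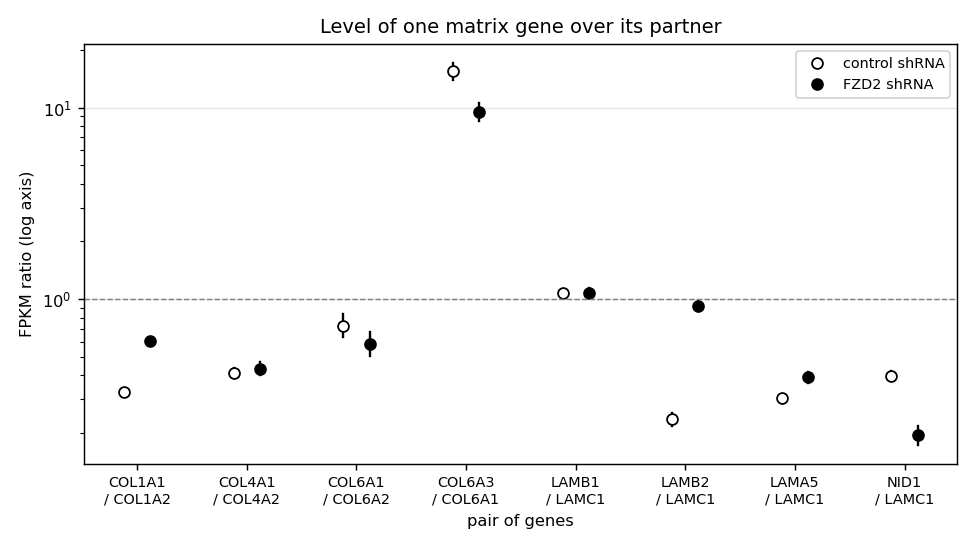
FPKM of the first gene over the second for 8 pairs of matrix genes, on a log axis, in the control (open) and FZD2 shRNA (filled) library, with 95% counting intervals. COL4A1 over COL4A2 and LAMB1 over LAMC1 sit at the same height in both libraries, while LAMB2 over LAMC1 rises from 0.236 to 0.924.

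GC content moved with these values. Across the 30 measured matrix genes without shared reads, Spearman's rho of ratio with transcript GC content was 0.56, beside 0.36 across 8087 genes in all. These points share the same 2 libraries and genes are not independent replicates. COL1A1 has 61.1% GC and COL1A2 54.8%, and LAMB2 60.3% against 49.7% in LAMB1 and 48.7% in LAMC1. With the trend taken out, the difference of log2 ratios was 0.65 in place of 0.88 for COL1A1 minus COL1A2 and 1.506 in place of 1.905 for LAMB2 minus LAMB1. COL4A2, with 62.0% GC, was at -1.04 and COL4A1, with 53.6%, at -0.65, so their difference widened to 0.40 from 0.09. COL6A3 minus COL6A1 was -0.38 in place of -0.72, and LAMA5 minus LAMC1 turned from 0.38 to -0.26. The part of GC content in these differences was not tested.

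**Figure D4:**
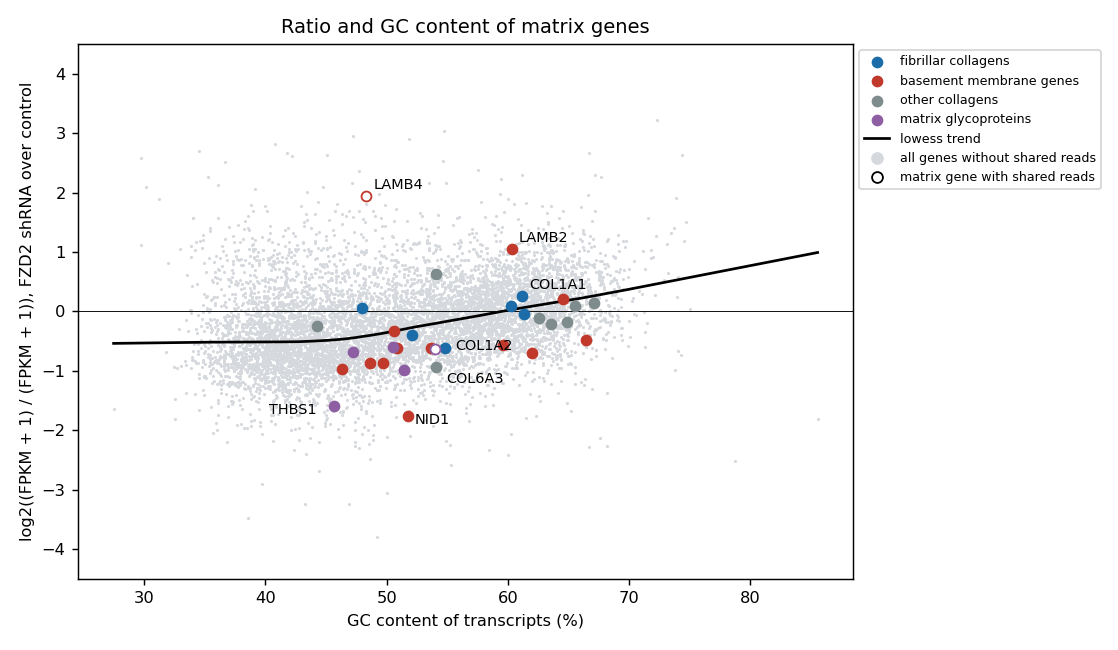
Log2 ratio on FPKM + 1, FZD2 shRNA over control, against GC content of transcripts in percent for 32 measured matrix genes by class (open circles for shared reads), with all 8087 genes without shared reads in grey and their lowess trend as a line. NID1 and THBS1 lie well below the trend and LAMB2 above it.

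Few genes that make, secrete and crosslink collagen passed 2-fold. Of 28 measured genes of this kind, 1 was at least 2-fold higher and 1 at least 2-fold lower (15.2% and 7.41% of all measured genes), with a median of -0.17. Of the 22 without shared reads, 0 were higher and 1 lower (4.19% and 10.2% of all such genes). The lower gene was SEC23A, a coat protein for export of procollagen from the endoplasmic reticulum, at 9.48 against 20.33 FPKM (log2 ratio -1.03, or -0.77 with the GC trend taken out and -0.90 in TPM). The higher gene was P3H4, of the collagen-modifying complex, at 53.4 against 18.26 (1.498, shared reads).

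Among 20 measured receptors for collagen, laminin and fibronectin, 3 were at least 2-fold lower and 1 at least 2-fold higher (7.41% and 15.2% of all measured genes), with a median of -0.13. Of the 16 without shared reads, 2 were lower and 0 higher (10.2% and 4.19% of all such genes). ITGB1, the beta chain shared by most matrix integrins, was at 238.35 against 585.33 FPKM (-1.29, shared reads). ITGAV, a chain of integrins for fibronectin and vitronectin, was at 11.01 against 25.41 (-1.14), and ITGA6, of laminin receptors, at 10.94 against 24.49 (-1.09). With the GC trend taken out ITGAV stood at -0.87 and ITGA6 at -0.84, and in TPM ITGA6 stood at -0.97. CD36, a thrombospondin receptor with shared reads, was at 2.71 against 0.49 FPKM (1.32). Of 20 further matrix glycoproteins and proteoglycans, 2 were at least 2-fold higher and 0 lower, beside 15.2% and 7.41% of all measured genes (median -0.16). These were MFAP5, of microfibrils, at 5.52 against 0.94 FPKM (1.75), and PRELP, a basement membrane proteoglycan, at 5.03 against 1.4 (1.33), both with shared reads. Of the 17 without shared reads, 0 were higher and 0 lower (4.19% and 10.2% of all such genes).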

How the data were processed

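Poly(A) RNA of 2 SNU449 libraries, 1 per group, was sequenced. Bowtie2, HISAT and build hg19 stand in the submitters' processing notes, with neither versions nor roles, and no source used here gives the counting program. Per the file headers, the deposited values are an expected count per gene (estimated reads, not normalized), an FPKM value scaled by the authors to length and depth, and a gene length. Unlisted genes were set to 0. Symbols came from the RefSeq gene table by gene identifier, and 53 measured genes had none.

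From these, log2((FPKM + 1) / (FPKM + 1)) was computed with a pseudocount of 1, so differences between low values come out too small. Measured genes had 1 FPKM or more in either library, and the size limit was 2-fold. Count intervals are exact conditional binomial intervals on expected counts rounded to whole numbers, and for the change of a pair's ratio a log-scale Poisson interval. Amplified reads are not independent molecules, so these cover counting error at most. A count of 3 is 3.64e-05% and 3.56e-05% of the totals. Shared reads were read from counts more than 0.001 from a whole number. GC content was the mean over GENCODE release 29 transcripts matched by RefSeq accession (96.1% of measured genes), else of the longest coding transcript of that symbol, as for COL1A1. Trends were lowess curves (fraction 0.3) over the genes that had no shared reads, subtracted with their mean level kept. The call rule, intervals and trend removal were tested on simulated data.

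The naming rule took FZD2, measured matrix genes, and members of 3 further lists past 2-fold, up to 4 each. Of the measured matrix genes, 1 is counted but not reported by name or drawn. COL28A1, the cell type markers and the genes named without values fall outside the rule. Members, lists and alternatives were chosen with earlier results of these data known. The software was Python 3.11.15 with SciPy 1.17.1, statsmodels 0.14.6, pandas 2.3.3, NumPy 2.4.6 and matplotlib 3.10.9.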

Additional observations from a re-analysis of the deposited data

How the results depend on the processing

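Of 11 alternatives, 10 bear on medians. Under these, the medians of all matrix genes, of fibrillar collagens and of basement membrane genes, and the difference between the latter, mostly stayed within their counting range. For a median, that range takes all genes to the same end of their intervals at once. For the difference, it takes fibrillar and basement membrane genes to opposite ends. These ranges are therefore wide, and staying within them says little. With no filter on low values the median over all 54 listed matrix genes was -0.11 and over 19 basement membrane genes -0.33. The count of matrix genes at least 2-fold lower was 4 with a pseudocount of 0.1 FPKM and 4 with counts scaled to CPM (12.2% and 10.1% of all measured genes), and 14 at a size limit of 1.5-fold (21.7%). The count at least 2-fold higher was 0 with a pseudocount of 5 FPKM (6.55% of all measured genes), 1 when the GC trend was removed (16.2%), 1 when genes with shared reads were left out, and 4 at 1.5-fold (26.1%). No called gene changed sign. Of 231 single-gene values under the 7 alternatives that can move them, 49 left their counting range, among them 18 of 33 genes with the GC trend removed and 16 of 33 in TPM. No paired analysis was possible because each group has 1 library, and for the same reason no replicate could be left out. Genes under 1 FPKM rest on few reads, and at this depth their differences were mostly not detectable.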
